A study of Mus musculus with 12 samples.

Results

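Among nuclei of the adipose depot labelled mPRAT, 242 carried the RNA of steroid-making cells of the adrenal cortex. They were chosen by their own counts. A nucleus was taken when the UMIs of Cyp11a1, Cyp11b1, Star, Cyp21a1 and Hsd3b1 summed to at least 3, with at least 2 of these 5 genes seen. The sum also had to exceed that of 7 genes of other cell types, Adipoq, Plin1, Acsl1, Flt1, Lama2, Mrc1 and Epcam. A UMI is a molecular barcode that marks 1 captured RNA molecule. The 242 nuclei were 0.905% of the 26740 mPRAT nuclei in which 300 or more genes were seen and mitochondrial UMIs were 10% or less. Over all 12 libraries of the series they were 242 of 106898 such nuclei.

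The adrenal cortex makes steroid hormones from cholesterol in concentric zones. Star carries cholesterol into mitochondria, Cyp11a1 cleaves its side chain, and Hsd3b, Cyp21a1 and Cyp11b enzymes turn the product into corticosterone or aldosterone. The outer zona glomerulosa responds to angiotensin II and makes aldosterone. The zona fasciculata inside it responds to the pituitary hormone ACTH through the receptor Mc2r and makes glucocorticoids. The adrenal gland lies beside the kidney, next to perirenal fat.

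The series profiled adipose depots of male C57BL/6J mice on normal chow by single-nucleus RNA sequencing with 10x 3′ v3.1 chemistry, after nuclei were sorted on the DNA dye 7-AAD. Each of the 12 groups had 1 library, and the number of animals behind a library is not given in the labels. The abbreviation mPRAT is not spelled out there. The 4 mPRAT groups were mice of 1 month (4 weeks) and 2 months (8 weeks), and 2 groups titled 6 months whose age is listed as 16 weeks. Both younger groups and 1 of the 6-month groups were kept at room temperature, 22 °C. The other 6-month group was kept at 4 °C for 3 days. The other 8 libraries came from the depots labelled iBAT, lPRAT and iWAT.

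The cold mPRAT library stood apart. Of its barcodes with at least 300 genes, 66.0% exceeded the mitochondrial limit, against 2.03% in the 6-month library at room temperature, 22.1% at 2 months and 7.42% at 1 month. This left 3781 nuclei in the cold library and 11412 in the other 6-month library. Barcodes shared between any pair of libraries numbered 3 to 76, at most 0.734% of the smaller library, and 8 of the 242 nuclei had a barcode that another library also held. With 1 library a group there is no replicate check and no test. Intervals below are 95% intervals that cover counting error only, exact Poisson for levels, exact Clopper-Pearson for shares and exact conditional binomial for ratios. UMIs of 1 nucleus share a source, so the number of nuclei behind a value is given where it matters.

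Adrenal cortex nuclei came almost wholly from the 6-month mPRAT libraries. At room temperature 95 of 11412 nuclei were found there, or 0.832% (95% interval 0.674 to 1.02%). In the cold library 139 of 3781 nuclei were found, or 3.68% (3.10 to 4.33%). The younger libraries held few, with 7 of 5391 nuclei at 1 month, or 0.130% (0.0522 to 0.267%), and 1 of 6156 at 2 months, or 0.0162% (0.000411 to 0.0905%). Their remaining nuclei were also shallower, with a median of 1401 and 1656 UMIs. At 6 months the medians were 2713 at room temperature and 3482.5 in the cold. The rule needs a fixed number of UMIs, and the part of depth in these shares was not tested. None was found among 80158 nuclei of the other 8 libraries, which allows a share of up to 0.00374%.

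The cold share depended on its denominator. With no mitochondrial limit the cold library held 156 such nuclei of 11134 barcodes, or 1.40%. The count of nuclei thus moved little while the share was less than the one under the limit. The share at 6 months at room temperature was 0.816% without the limit, and the cold share was above it under both settings. How much gland a dissection held, and how many animals it came from, were not recorded in the labels and their part in these shares was not tested.

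**Figure D1:**
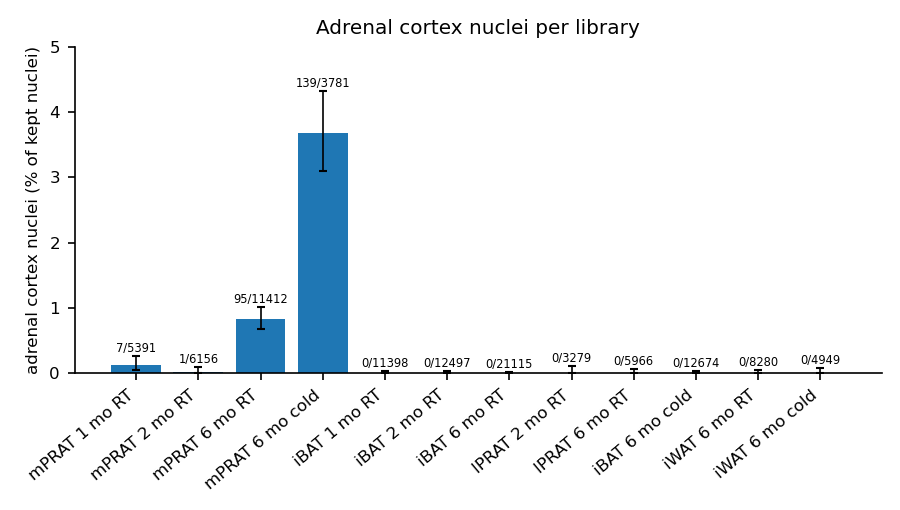
Bars give adrenal cortex nuclei as a percent of kept nuclei in each of the 12 libraries (mo, months; RT, room temperature), with exact 95% intervals and the counts above each bar. The mPRAT libraries at 6 months reached 0.832% at room temperature and 3.68% in the cold, and the libraries of other depots were at 0.

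The summed UMIs of the 5 genes ranged from 3 to 109 with a median of 25 at room temperature and from 3 to 131 with a median of 23 in the cold. All 5 genes were seen in 50 of the 95 and in 77 of the 139 nuclei. Just inside the limit, 1 nucleus at room temperature and 2 in the cold had a sum of 3. Just outside it, 52 and 11 nuclei had a sum of 2. A further 3 and 15 nuclei met the sum but had at least as many UMIs of the other-type genes. These 15 cold nuclei had a median of 16 UMIs of the steroidogenic genes and 24 of the other-type genes. Of the members themselves, 2 at room temperature and 15 in the cold held 10 or more UMIs of the other-type genes. Depth per nucleus differed, with a median of 6691 UMIs at room temperature and 4499 in the cold, against 6298 and 4745 in adipocyte-marker nuclei. The adipocyte-marker nuclei, 4045 and 2101, are those outside the members with at least 3 UMIs and 2 genes of Adipoq, Plin1 and Acsl1. These UMIs also had to exceed those of the 5 steroidogenic genes and the remaining other-type genes together. They serve below as a comparison cell type. Some genes of the cortex lists were frequent in them. Mrap had UMIs in 57.6% and 48.9% of them, Kcnk3 in 62.9% and 66.9%, and Scarb1 in 35.0% and 33.0%. Others were rare, as given below. For the 5 steroidogenic genes the low level in adipocyte-marker nuclei is partly fixed by how these were chosen.

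The 5 genes of the rule are described first, with no test, since they chose the nuclei. Levels are in CPM, the UMIs of a gene per 1000000 UMIs of the nuclei summed. Values from 3′ counts are not scaled by gene length, so levels are compared between groups and not between genes. Cyp11a1 (chromosome 9, 58006411 to 58027023, GRCm38) was at 713 CPM at room temperature (653 to 777) and 1093 CPM in the cold (1023 to 1167). It had UMIs in 87 of 95 and 128 of 139 nuclei. Star (chromosome 8, 25806555 to 25815982) was at 423 CPM (378 to 473) and 654 CPM (600 to 711).

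The other 3 rule genes encode later enzymes of the pathway. Hsd3b1 (chromosome 3, 98852194 to 98859794) was at 1319 and 1606 CPM. Cyp21a1 (chromosome 17, 34801348 to 34804561), the 21-hydroxylase, was at 1153 and 1323 CPM. Cyp11b1 (chromosome 15, 74834125 to 74841643), which makes corticosterone, was at 480 and 613 CPM. Since a fixed number of UMIs of these 5 genes chose the nuclei, in libraries of different depth, nothing is read from the difference between the libraries. In the remaining nuclei these genes stood between 0.762 and 10.4 CPM in the 2 libraries. Hsd3b1 and Hsd3b6, Cyp11b1 and Cyp11b2, Agtr1a and Agtr1b, and Cyp21a1 and its pseudogene are similar in sequence. The counting could split their reads, so their values are uncertain in that respect.

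Many other genes of the cortex, not used to choose the nuclei, were high in them. Of all genes with at least 20 UMIs over members and remaining nuclei, 10.9% were at least 2-fold higher in the members at room temperature and 10.4% in the cold, on a log2 scale with 1 CPM added to both. At least 2-fold lower were 27.4% and 23.6%. This is the contrast in which the rule chose the nuclei, so the counts below are descriptions.

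Fdx1 and Fdxr supply electrons to the mitochondrial P450 enzymes. Fdxr was at 334 CPM (294 to 379) at room temperature and 544 CPM (495 to 596) in the cold, against 6.52 and 9.34 CPM in the remaining nuclei. Fdx1 was at 214 CPM (182 to 250) and 466 CPM (421 to 515), against 19.7 and 46.4 CPM. Both stood well above the other nuclei in both libraries. Of the list of steroid enzymes and partners, 5 of 8 usable genes at room temperature and 3 of 7 in the cold were at least 2-fold higher, and 3 in each library at least 2-fold lower, with a median log2 ratio of 3.09 and 0.26 against -0.34 and -0.16 over all genes. In the cold the median was -0.53 after the level of adipocyte-marker nuclei was subtracted, and 5 genes were higher with no minimum of UMIs. Por, the electron donor of microsomal P450 enzymes, was lower in members, at 150 and 184 CPM against 657 and 541 CPM.

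Named genes of cholesterol uptake and storage were high in the members. Scarb1, the HDL receptor that takes up cholesterol ester, was at 782 CPM (720 to 848) at room temperature and 783 CPM (724 to 846) in the cold, against 70.7 and 90.0 CPM in the remaining nuclei. Soat1, which esterifies cholesterol for storage, was at 603 CPM (549 to 662) and 536 CPM (488 to 589), against 30.7 and 12.1 CPM. Hmgcs1, an enzyme of cholesterol synthesis, was lower than in the remaining nuclei, at 24.4 and 49.5 CPM against 103 and 130 CPM. Over the cholesterol supply list, 3 of 19 genes at room temperature and 2 of 19 in the cold were at least 2-fold higher, 5 and 6 were at least 2-fold lower, and the median log2 ratios were -0.56 and -0.31. In both directions these counts were near the shares over all genes.

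Some signalling genes of the ACTH pathway were higher in members and others lower. The ACTH receptor Mc2r was at 260 CPM (224 to 299) and 278 CPM (243 to 316), against 9.39 and 6.84 CPM in the remaining nuclei, with UMIs in 70 of 95 and 94 of 139 nuclei. The cAMP phosphodiesterase Pde8b was at 284 and 280 CPM, against 6.68 and 3.75 CPM. Pde10a, another cyclic nucleotide phosphodiesterase, was at 1192 and 1149 CPM, against 29.4 and 39.3 CPM. These 3 genes had the same level in both libraries within counting error. The receptor's partner Mrap was lower in members than in the remaining nuclei, at 32.5 and 61.6 CPM against 108 and 121 CPM. In the adipocyte-marker nuclei Mrap was at 165 and 158 CPM. The protein kinase A subunit Prkar2b was also lower, at 465 and 710 CPM against 2203 and 1883 CPM in the remaining nuclei. Of 17 genes in the list, 5 were at least 2-fold higher and 5 at least 2-fold lower in each library, and the count of lower genes was near the share over all genes.

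Nr5a1, which encodes SF-1, the transcription factor that directs steroidogenic cells, had 55 UMIs in each library, at 74.4 CPM (56.1 to 96.9) at room temperature and 66.5 CPM (50.1 to 86.5) in the cold. They lay in 35 of 95 and 39 of 139 nuclei, and in 9.57% and 4.32% of nuclei after each was thinned to 1000 UMIs. In the remaining nuclei Nr5a1 was at 0.127 and 0.263 CPM, with UMIs in 0.0989% and 0.190% of the adipocyte-marker nuclei. Gata6, a transcription factor of the adrenal cortex, was at 142 and 225 CPM, against 32.3 and 44.0 CPM. Nr0b1, which encodes the SF-1 repressor DAX-1, had 0 UMIs at room temperature and 1 in the cold. Of the list of cortical transcription factors, 5 of 9 and 6 of 9 usable genes were at least 2-fold higher and 2 in each library at least 2-fold lower. With 10 CPM added, 3 were higher at room temperature.

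**Figure D2:**
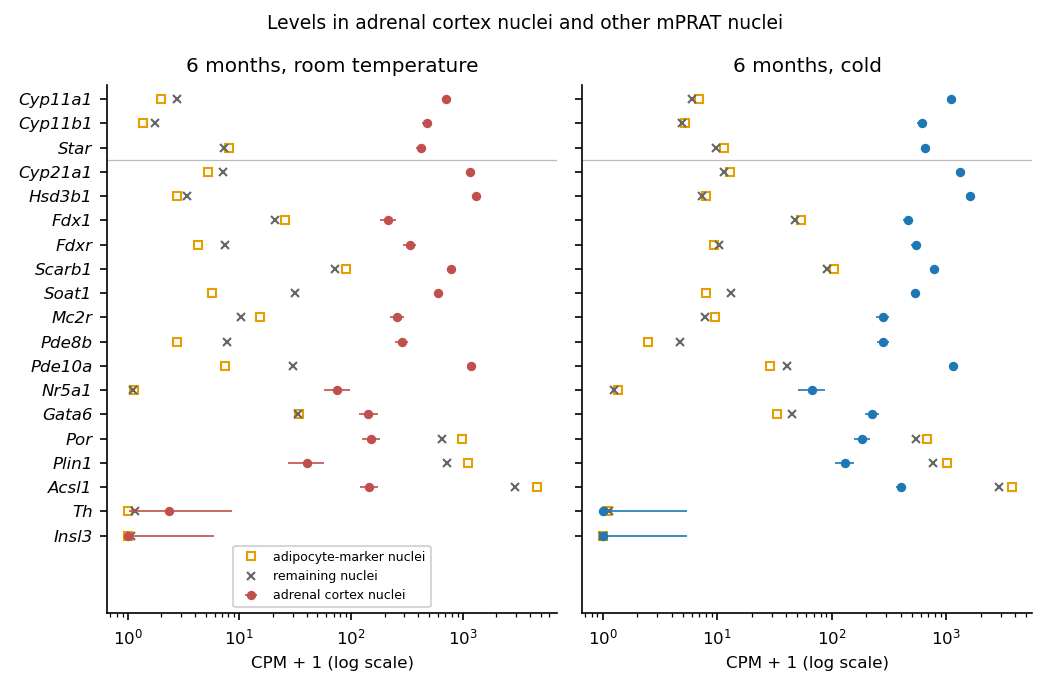
Levels of named genes in adrenal cortex nuclei (filled circles, exact Poisson 95% intervals), remaining kept nuclei (crosses) and adipocyte-marker nuclei (open squares), as CPM + 1 on a log axis. The top 5 genes, Cyp11a1 to Hsd3b1, of which at least 2 had to be seen, helped to choose the nuclei. So did Plin1 and Acsl1, limited by the rule. The grey line lies between Star and Cyp21a1 and does not set the rule genes apart. Scarb1, Mc2r and Nr5a1 lie well above the other nuclei in both libraries, while Por lies below.

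The label adrenal cortex was checked against other steroid-making and adrenal cells. The Leydig cell genes Insl3, Hsd17b3, Lhcgr and Cyp17a1 had 0 UMIs in the members of both 6-month libraries. Taken as 3 counts, the limit for a gene at 0 is 4.06 CPM at room temperature and 3.62 CPM in the cold. The other gene of the Leydig list, Hsd3b6, is also on the zona glomerulosa list and had 30 and 12 UMIs, at 40.6 and 14.5 CPM against 0.0635 and 0.0658 CPM in the remaining nuclei. Cyp17a1 is also the enzyme that mouse adrenal cortex lacks in adult life. The 10 chromaffin genes of the adrenal medulla summed to 2 UMIs in each 6-month library, in Th and Chga at room temperature and in Chgb and Slc18a1 in the cold, with Dbh, Pnmt, Ddc, Slc18a2 and Hand2 among those at 0. Of the X-zone genes Akr1c18 and Pik3c2g were at 0, and Thrb was at 624 and 663 CPM, below the 860 and 1161 CPM of the remaining nuclei. Of the capsule genes, Gli1 and Tcf21 were at 0 in both libraries. Rspo3 had 6 and 3 UMIs, and Wt1 had 0 and 1. Nr2f2, the most frequent capsule gene by UMIs, was at 51.4 and 58.0 CPM, against 32.9 and 70.0 CPM in the remaining nuclei. The low levels of Nr0b1, Mrap and Por given above are those of cortex genes that were not high in these nuclei.

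Marker genes of other cells differed between the 2 libraries. The 8 adipocyte genes summed to 352 CPM in members at room temperature and 1396 CPM in the cold, against 12395 and 10632 CPM in adipocyte-marker nuclei. Of the 8, Adipoq, Plin1 and Acsl1 were limited in members by the rule and chose the adipocyte-marker nuclei, so part of that gap is fixed by the choice. The 8 had UMIs in 81 of 95 and 103 of 139 nuclei, and the 10 nuclei with the most held 41.5% and 61.8% of these UMIs. The 6 stromal progenitor genes summed to 20.3 and 87.0 CPM, against 369 and 338 CPM in the remaining nuclei, with Col1a1 at 0 at room temperature and at 1 UMI in the cold. The 7 epithelial and kidney tubule genes summed to 8.12 and 42.3 CPM, against 14.3 and 91.0 CPM, with 3 of the 7 at 0 in each library. The 6 B and T cell genes summed to 262 and 199 CPM, against 852 and 53.3 CPM in the remaining nuclei. Of this sum Skap1, a T cell adaptor gene, had 170.5 and 175 CPM, against 353 and 28.3 CPM in the remaining nuclei, with UMIs in 41 of 95 and 57 of 139 members. In the cold Skap1 was thus higher in members than in the remaining nuclei. The B cell gene Ms4a1 had 10 UMIs at room temperature and 0 in the cold. The scrublet method left out 12 of the 95 and 22 of the 139 nuclei as the highest doublet scores, or 12.6% and 15.8% of members against 9.32% and 8.91% of all scored barcodes. These amounts move with the cold comparison below, and their part in it was not tested.

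The genes that led the members most, after those of the rule, are the 20 with the largest log2 ratio over the remaining nuclei in the cold library, with 10 CPM added and at least 50 CPM, and were thus chosen from that contrast. Among them are the ion channel subunit genes Cacna1c, Cacnb2, Cacna2d1, Kcnma1, Kcnn2 and Kcnk9. Cacna1c, the pore of an L-type calcium channel, was at 7368 CPM at room temperature and 6661 CPM in the cold, against 103 and 56.8 CPM in the remaining nuclei, and was seen in 94 of 95 and 138 of 139 nuclei. Srd5a2, a steroid 5-alpha-reductase, was at 1456 and 1927 CPM, against 1.35 and 7.83 CPM. The list also held Akr1cl, of the aldo-keto reductase family, at 2721 and 1649 CPM, and Trank1 at 1542 and 1347 CPM.

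The room-temperature library, which did not choose these 20 genes, showed the same order of size. All 20 were at least 2-fold higher in its members, where 10.9% of all genes were, with log2 ratios from 4.62 to 9.27 there and from 5.44 to 8.05 in the cold. Each was seen in at least 47 of 95 and 62 of 139 nuclei. Between the cold and room-temperature members none of the 20 differed by 2-fold, and their log2 ratios ran from -0.72 to 0.64. The other leading genes were Abcb1b, Rerg, Greb1, Rapgef4, Tmem200a, Frmpd4, Cttnbp2, Frmd5, Pbx3, Tbx3os1 and Dlgap1.

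Zone markers divided the members in both libraries. Vsnl1, a calcium sensor known from the zona glomerulosa, had UMIs in 28 of 95 and 39 of 139 nuclei, and the angiotensin II receptor gene Agtr1b in 21 and 25. For Vsnl1 these are 29.5% and 28.1% of nuclei, or 19.1% and 20.1% thinned to 1000 UMIs. In adipocyte-marker nuclei the Vsnl1 shares were 0.0494% and 0.333%, or 0.0248% and 0.192% thinned. Across nuclei the levels of Vsnl1 and Agtr1b went together, with a Spearman rho of 0.73 in both libraries. Vsnl1 and Cyp11b1 ran opposite, with a rho of -0.57 over 95 nuclei and -0.50 over 139. These correlations describe nuclei of 1 library each, which share its depth and preparation.

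The nuclei were therefore split by whether Vsnl1 and Agtr1b together had more UMIs than Cyp11b1 and Akr1b7, a split chosen after the values were seen. At room temperature 24 of 95 nuclei fell on the Vsnl1 and Agtr1b side, or 25.3% (16.9 to 35.2%), 62 on the Cyp11b1 and Akr1b7 side, and 9 were equal. In the cold 33 of 139 fell on the first side, or 23.7% (16.9 to 31.7%), 89 on the other, and 17 were equal. The shares of the first side overlapped between the libraries. This is over all members. Among members with 0 UMIs of the other-type genes, Vsnl1 and Agtr1b were higher in the cold, as given in the last section. A difference of at most 1 UMI between the sums, which includes the equal nuclei, was found in 19 and 28 nuclei. Nuclei with at least 3 UMIs of both pairs numbered 2 and 3. When each nucleus was thinned to 1000 UMIs, leaving out 1 shallower nucleus at room temperature and 0 in the cold, the first side held 21.3% and 20.1%, and 40.4% and 37.4% were equal.

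**Figure D3:**
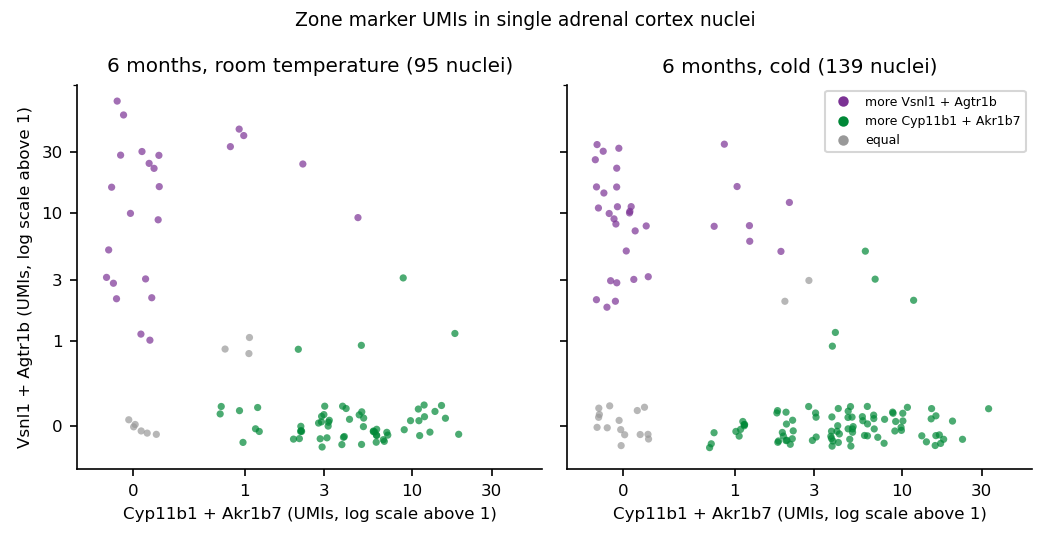
Each point is 1 adrenal cortex nucleus, by its UMIs of Cyp11b1 + Akr1b7 (x) and of Vsnl1 + Agtr1b (y), with a small random shift and log axes above 1. Most nuclei lie along an axis, and 2 nuclei at room temperature and 3 in the cold hold at least 3 UMIs of both pairs.

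Several genes that took no part in the split differed between its sides in both libraries. Of the zona glomerulosa list, 6 of 7 usable genes were at least 2-fold higher on the Vsnl1 and Agtr1b side in each library, where 7.29% and 7.16% of all genes were. Dab2, Agtr1a, Kcnk9, Wnt4 and Lef1 were so in both libraries, Hsd3b6 at room temperature and Shh in the cold, each with under 20 UMIs in the other library. Hsd3b6 rested on 15 UMIs from 4 nuclei and 15 from 7, at 83.0 CPM (46.5 to 137) and 29.6 CPM (16.6 to 48.8). Those intervals overlapped, and so did the ones of Shh in the cold. Of 3 usable zona fasciculata genes, 1 was at least 2-fold higher on each side at room temperature, and 2 were higher on the Cyp11b1 and Akr1b7 side in the cold. Dab2, an endocytic adaptor that marks the mouse zona glomerulosa, was at 2746 CPM (2509 to 2998) on that side and 282 CPM (238 to 332) on the other at room temperature. In the cold it was at 3163 CPM (2880 to 3467) and 105 CPM (81.0 to 133). Wnt4, a ligand of the outer cortex, was at 410 and 41.4 CPM at room temperature and 338 and 44.4 CPM in the cold. Lef1, a transcription factor of Wnt signalling, was at 515 and 73.0 CPM, and at 428 and 76.2 CPM. The levels of these 3 genes on the 2 sides did not overlap within counting error in either library.

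The receptors of both hormones were higher on the glomerulosa-marker side. Agtr1a was at 764 and 223 CPM at room temperature, and at 1616 and 665 CPM in the cold. Mc2r was at 476 CPM (381 to 588) and 199 CPM (162 to 242), and in the cold at 387 CPM (292 to 502) and 232 CPM (196 to 273). The aldosterone synthase gene Cyp11b2 had 9 UMIs in 5 nuclei at room temperature and 2 UMIs in 2 nuclei in the cold, all on the first side. It was seen too rarely to describe further. Kcnk3, a leak potassium channel on the list, overlapped between the sides in both libraries, at 1323 CPM (1161 to 1502) and 1288 CPM (1192 to 1391) at room temperature and at 1174 CPM (1004 to 1365) and 948 CPM (873 to 1027) in the cold. Shh, a ligand of subcapsular cortical cells, was at 5.54 CPM on the first side and 27.6 CPM on the other at room temperature, from 1 and 14 UMIs. In the cold it was the other way, at 62.2 and 20.6 CPM from 9 and 13 UMIs.

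Abcb1b, Srd5a2 and Frmd5 were higher on the Cyp11b1 and Akr1b7 side. Abcb1b, a drug and steroid transporter, was at 2318 CPM (2188 to 2455) there and 38.8 CPM (15.6 to 79.8) on the other side at room temperature, and at 3521 CPM (3376 to 3671) and 20.7 CPM (4.27 to 60.6) in the cold. Srd5a2 was at 1997 and 27.7 CPM, and at 2496 and 34.5 CPM, from 57 nuclei against 3 and 84 nuclei against 1. Frmd5 followed with 1170 and 194 CPM, and with 906 and 104 CPM. The nuclei with equal sums also carried these genes. In them Abcb1b was at 2534 CPM (2119 to 3007) from 6 of 9 nuclei at room temperature and 1342 CPM (1048 to 1692) from 5 of 17 in the cold. Srd5a2 was at 1141 and 340.1 CPM there, and Frmd5 at 1199 and 151 CPM. They carried genes of the first side too, with Dab2 at 1083 and 869 CPM, Wnt4 at 271 and 75.6 CPM and Lef1 at 174 and 170.1 CPM.

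The 4 rule genes outside the split were also higher on that side. Every member had to carry rule genes, so their presence on both sides follows from the rule. Cyp11b1, which helped to set the side, is a rule gene too. The levels of these 4 genes are descriptions, and nothing is read from their differences. Hsd3b1 was at 1594 and 554 CPM at room temperature and 1765 and 739 CPM in the cold. Cyp11a1 was at 846 and 404 CPM, and at 1211 and 670 CPM. Star was at 476 and 221 CPM, and at 795 and 145 CPM. Cyp21a1 was at 1243 and 853 CPM, and at 1439.9 and 850 CPM. The uptake receptor Scarb1 was at 943 and 426 CPM, and at 954 and 173 CPM.

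Over all genes with at least 20 UMIs on both sides together, 7.29% at room temperature and 7.16% in the cold were at least 2-fold higher on the Vsnl1 and Agtr1b side. On the other side 14.5% and 17.5% were. Adipocyte genes were among these, 1 of 4 usable genes of that list at room temperature and 5 of 6 in the cold. In the cold Acsl1, limited by the rule, was at 505 CPM on the Cyp11b1 and Akr1b7 side and 89.8 CPM on the other, and Pparg at 627 and 290.1 CPM. A member had to hold fewer other-type UMIs than its sum of rule genes, so the limit rose with that sum. The median sum was 33 on the Cyp11b1 and Akr1b7 side and 16 on the other at room temperature. In the cold it was 37 and 11. The limit was thus looser on the Cyp11b1 and Akr1b7 side, and nothing is read from the higher adipocyte genes there. The part of these markers in the differences between the sides was not tested. Among the 5131 genes that could be compared in both libraries, 350 at room temperature and 372 in the cold were higher on the first side and 182 were so in both, or 52.0% of the first list and 48.9% of the second. On the other side it was 282 of 701 and of 762, or 40.2% and 37.0%. Of the genes higher on the first side at room temperature, 15 were at least 2-fold higher on the opposite side in the cold. The median depth of the 2 sides was 7697 and 6288 UMIs at room temperature and 3873 and 5875 UMIs in the cold.

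**Figure D4:**
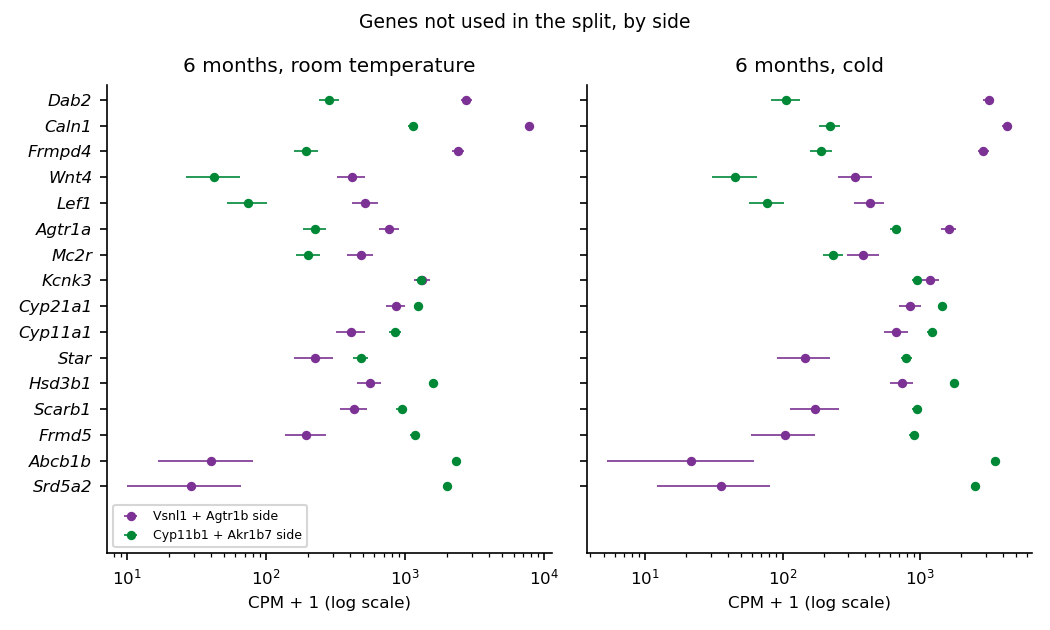
Levels on the Vsnl1 + Agtr1b side (purple) and on the Cyp11b1 + Akr1b7 side (green) of genes not used in the split, as CPM + 1 on a log axis with exact Poisson 95% intervals. Dab2, Wnt4 and Lef1 are higher on the first side and Abcb1b, Srd5a2 and Frmd5 on the other in both libraries, and the intervals of Kcnk3 overlap in both.

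Promoters of 4 genes are shown because the genes marked different sides or are related to each other. Akr1b7 was used for the Cyp11b1 side and Agtr1b for the other, and Hsd3b1 and Hsd3b6 encode related enzymes. Each sequence runs 5′ to 3′ on the gene's strand from 250 bases before to 50 bases after the RefSeq start, from RefSeq's table on GRCm38.p6. The windows are chr3:98859745-98860044 (- strand) for Hsd3b1, chr3:98814394-98814693 (- strand) for Hsd3b6, chr6:34412112-34412411 (+ strand) for Akr1b7 and chr3:20367128-20367427 (- strand) for Agtr1b. Capitals mark matches on either strand to AAGGTCA and AAGGCCA, core letters of elements that SF-1 binds, to TGACGTCA, the cAMP response element, and to TATAAA, the TATA box.
Hsd3b1: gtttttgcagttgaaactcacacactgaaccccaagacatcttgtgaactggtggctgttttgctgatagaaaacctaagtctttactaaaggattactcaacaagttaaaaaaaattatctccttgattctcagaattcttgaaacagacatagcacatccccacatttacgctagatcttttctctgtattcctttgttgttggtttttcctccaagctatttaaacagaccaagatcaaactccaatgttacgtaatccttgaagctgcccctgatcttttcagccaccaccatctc
Hsd3b6: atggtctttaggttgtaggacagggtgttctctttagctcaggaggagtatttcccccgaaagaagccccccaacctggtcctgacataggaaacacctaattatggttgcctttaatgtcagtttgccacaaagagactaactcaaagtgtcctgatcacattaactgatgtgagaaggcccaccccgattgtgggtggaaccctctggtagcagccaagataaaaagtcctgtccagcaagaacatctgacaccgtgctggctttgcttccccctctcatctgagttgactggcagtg
Akr1b7: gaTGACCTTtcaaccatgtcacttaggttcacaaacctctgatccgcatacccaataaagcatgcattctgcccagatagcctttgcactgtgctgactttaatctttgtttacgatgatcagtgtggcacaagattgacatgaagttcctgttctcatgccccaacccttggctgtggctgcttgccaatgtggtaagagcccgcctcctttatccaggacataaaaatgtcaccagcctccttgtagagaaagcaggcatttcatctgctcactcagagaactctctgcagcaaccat
Agtr1b: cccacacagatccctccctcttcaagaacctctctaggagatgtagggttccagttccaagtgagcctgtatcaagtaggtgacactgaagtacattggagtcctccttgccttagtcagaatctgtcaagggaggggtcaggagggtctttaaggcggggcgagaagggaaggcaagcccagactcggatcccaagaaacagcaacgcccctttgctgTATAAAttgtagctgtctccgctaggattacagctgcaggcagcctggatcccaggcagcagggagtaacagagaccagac
Akr1b7 held 1 match to AAGGTCA, on the opposite strand, its first base at -248 from the start. The motif is in 4.72% of the 32851 promoters of the table. Agtr1b held 1 match to TATAAA at -31, a motif in 13.6% of the promoters. AAGGCCA is in 6.20% and TGACGTCA in 1.79% of promoters, and neither is in these 4 windows. A match is a description of letters and no evidence of binding. Aligned end to end, the Hsd3b1 and Hsd3b6 windows had 50.1% identical columns, within the 46.5 to 53.2% of the other pairs of these promoters. Of the 5 rule genes 2 had an entry in the table.

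Members of the cold and room-temperature libraries at 6 months were then compared over all genes. The question in the design is the response of a depot to cold. Of 8516 genes with at least 20 UMIs over both sets of members, 764 (8.97%) were at least 2-fold higher in the cold and 352 (4.13%) at least 2-fold lower. With 0 UMIs of other-type genes the counts were 296 and 245, and without the highest doublet scores 420 and 300. The 10 largest differences upward, by log2 ratio with 10 CPM added, were Tmprss2, Sprr1a, Ankfn1, Mecom, Adam12, C7, Trp63, Upk1b, S100a6 and Gstm1. Of these, 9 had a lower level in the cold members than in the remaining cold nuclei, and all 10 were at least 2-fold higher in the remaining nuclei too. Over all 764 genes higher in the cold, 29.2% were also at least 2-fold higher in the remaining nuclei, against 6.33% of all 8516 genes.

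Adam12, a metalloprotease gene, and Mecom, a transcription factor gene, are examples. Adam12 was at 14.9 CPM in room-temperature members and 272 CPM in cold members, while the adipocyte-marker nuclei were at 844 and 2585 CPM. Mecom was at 10.8 and 302 CPM in members, and at 317 and 1056 CPM in the remaining nuclei, with UMIs in 40 cold members, of which 1 held 73 of 250. The exception among the 10 by level was the complement gene C7, at 103 CPM in cold members and 81.6 CPM in the remaining cold nuclei, and it rested on 6 cold nuclei.

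The 10 largest differences in the other direction were Bank1, Cntn3, Sgcz, Arhgap15, St6galnac3, Nkain2, Ptprc, Pax5, Gm29683 and Ccdc192. Bank1, a B cell adaptor, had 76 UMIs in 13 members at room temperature and 0 in the cold, and was at 1341 and 34.5 CPM in the remaining nuclei. Ptprc and Pax5, also of immune cells, were at 64.9 and 43.3 CPM at room temperature and at 3.62 and 0 CPM in the cold, with 955 and 321 CPM in the remaining nuclei at room temperature. Cntn3 had 68 of its 71 UMIs in 1 nucleus. Of the 10, 5 had a lower level in members than in the remaining nuclei at room temperature, and 6 were also at least 2-fold lower in the remaining nuclei. Over all 352 genes lower in the cold the latter share was 27.6%, against 5.04% of all 8516. Over all genes past 2-fold, 493 of the 764 higher and 93 of the 352 lower had a level in members below that in the remaining nuclei of the library where members were higher.

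The comparison was therefore narrowed, after these values were seen, to genes at least 2 times as high in members as in the remaining nuclei, in the library where the members' level was higher. Genes with over 25% of a library's member UMIs in 1 nucleus were left out where it had at least 10. Of the 1399 genes left, 84 (6%) were at least 2-fold higher in the cold and 126 (9.01%) at least 2-fold lower, with a median log2 ratio of -0.22. A gene could pass through the library where it was high, so the difference itself helped to choose these genes, and nothing is read from the 2 counts or their balance. The genes below are given as descriptions. Of the 15 largest differences upward, 1, Akr1b7, was at least 2 times as high as the remaining nuclei in both libraries, and of the 15 downward 10 were.

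Akr1b7, an aldo-keto reductase known as an ACTH target of the zona fasciculata, was at 21.6 CPM (12.4 to 35.2) at room temperature and 105 CPM (84.2 to 130) in the cold. This is a ratio of 4.86 (2.83 to 8.87), from 16 UMIs in 11 of 95 nuclei and 87 UMIs in 31 of 139. The share of nuclei with a UMI was 11.6% and 22.3%, and 1.06% and 7.91% after thinning to 1000 UMIs, against 0.0742% and 0.238% of adipocyte-marker nuclei, or 0% and 0.0961% thinned. A single cold nucleus held 20 of the 87 UMIs. Akr1b7 was also seen in 6 of the 7 nuclei at 1 month, with 49 UMIs, and in the single nucleus at 2 months, with 2.

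Agtr1a, the angiotensin II receptor that both zones carried, was at 368 CPM (326 to 414) and 814 CPM (754 to 878), a ratio of 2.21 (1.92 to 2.56). It was higher in the cold on both sides of the zone split, with log2 ratios of 1.08 and 1.57. Fdx1 had a ratio of 2.18 (1.81 to 2.64) over all members. In the remaining nuclei Fdx1 was also higher in the cold, at 19.7 CPM at room temperature and 46.4 CPM in the cold. On the Cyp11b1 and Akr1b7 side it was at 243 and 589 CPM, and on the other side at 155 CPM from 8 nuclei and 34.5 CPM from 4 nuclei. The difference in Fdx1 between the libraries thus had opposite signs on the 2 sides, which was not tested.

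Agtr1a and Fdx1 were not among the 15 upward, and those of the 15 other than Akr1b7 passed only through the cold library. Stat2, a transcription factor gene, was at 56.8 CPM (41.0 to 76.8) from 28 nuclei at room temperature and 260 CPM (226 to 297) from 86 nuclei in the cold. Its log2 ratio was 1.70 on the Vsnl1 and Agtr1b side and 2.00 on the other. The interferon-inducible GTPase gene Irgm2 was at 5.41 and 87.0 CPM, and Irgm1 at 8.12 and 44.7 CPM. Xaf1 was at 4.06 and 39.9 CPM, and the class I histocompatibility gene H2-Q4 at 12.2 and 79.7 CPM. The proteasome activator gene Psme2 was at 1.35 and 36.2 CPM. In the remaining nuclei Stat2 was at 53.9 and 94.2 CPM, Irgm2 at 14.6 and 35.5 CPM, Psme2 at 16.1 and 17.0 CPM and H2-Q4 at 66.8 and 31.9 CPM. At room temperature Irgm2, Psme2 and H2-Q4 were thus lower in members than in the remaining nuclei. The list also held 4 ribosomal protein genes, Rpl10, Rpl37, Rpl30 and Rps25, and Tmem132a, Naxe and Lin37, each with at most 31.1 CPM at room temperature. The median mitochondrial share of members was 0.0833% at room temperature and 0.577% in the cold, and its part in these differences was not tested.

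Among the 15 downward was Caln1, which encodes a calcium-binding protein and ran with Vsnl1 across nuclei, at 2886 CPM (2765 to 3011) and 1068 CPM (999 to 1141). It was lower on both sides, at 7734 and 4296 CPM on the Vsnl1 side and at 1131 and 219 CPM on the other. Its log2 ratio was -1.43 over all members and -0.65 over the 29 and 64 members with 0 UMIs of the other-type genes. Shank2, a scaffold protein gene, was at 162 CPM (135 to 194) and 26.6 CPM (16.7 to 40.2), and had 0 UMIs on the Vsnl1 side in both libraries. Fat3, of the cadherin family, was at 260 and 87.0 CPM, with 59 of 72 cold UMIs on the Vsnl1 side. Nup62cl was at 48.7 CPM (34.1 to 67.4) and 3.62 CPM (0.748 to 10.6). The others of the 15 were Gm29683, Ccdc192, 9630002D21Rik, Aff2, Arrdc3, Gm34719, Tmem178b, Fhod3, Sytl5, Abat and Dnah7c.

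**Figure D5:**
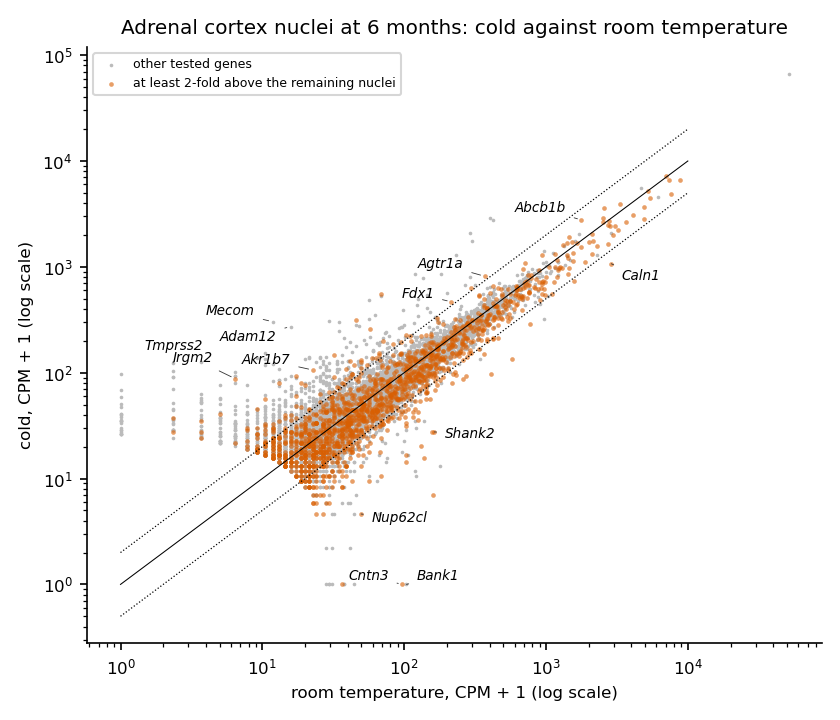
Each point is 1 of 8516 genes in adrenal cortex nuclei at 6 months, by its level at room temperature (x) and in the cold (y), as CPM + 1 on log axes. Orange genes are at least 2-fold above the remaining nuclei where members are higher, dotted lines mark 2-fold, and Akr1b7 and Agtr1a lie above them while Caln1, Shank2 and Nup62cl lie below.

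By list, and leaving aside the 5 rule genes, the shares past 2-fold were as follows. Of the steroid enzymes and partners, 2 of 7 genes were at least 2-fold higher, Akr1b7 and Fdx1, and 1 was lower, Hsd3b6, at 40.6 CPM from 11 nuclei and 14.5 CPM from 4. Fdx1 was also higher in the cold in the remaining nuclei, at 19.7 and 46.4 CPM. Of the ACTH and cAMP list 1 of 16 was at least 2-fold higher, Adcy3, at 29.8 and 85.8 CPM, below the 87.3 and 279 CPM of the remaining nuclei. Of the cholesterol supply list 2 of 16 were, the lipase gene Lipe and the mitochondrial protein gene Tspo. Lipe is also on the adipocyte list and was at 59.5 and 163 CPM, against 721 and 789 CPM in the remaining nuclei, and Tspo was at 17.6 and 41.1 CPM against 32.4 and 29.3 CPM. Of the cortical transcription factors 2 of 7 were, Cited2 and Gata4, the latter at 9.47 CPM (3.81 to 19.5) and 30.2 CPM (19.5 to 44.6). Of the zona glomerulosa list 1 of 10 was at least 2-fold higher, Agtr1a, and 1 at least 2-fold lower, Hsd3b6, with a median of -0.40. Of the zona fasciculata list, which includes the rule gene Cyp11b1, 1 of 5 was at least 2-fold higher, Akr1b7, with a median of 0.64. These shares stand beside 8.97% higher and 4.13% lower over all genes. Of the adipocyte list all 6 usable genes were at least 2-fold higher, with a median of 1.58, and so were the 2 usable genes of the stromal progenitor list, Lama2 and Dcn, with a median of 2.79. The epithelial and kidney tubule list had no usable gene. The part of these markers in the differences was not tested.

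Lists that respond to stress hormones showed no common direction. Of the immediate early genes, 1 of 4 usable genes, Junb, was at least 2-fold higher, with 3 and 17 UMIs, and Fosb and Atf3 had 0 UMIs in both libraries. Nr4a3 was at 50.1 CPM in 23 nuclei at room temperature and 25.4 CPM in 16 nuclei in the cold. Of the 6 glucocorticoid response genes none was past 2-fold, with a median of -0.11. Fkbp5, a target of the glucocorticoid receptor, was at 208 and 143 CPM. Its receptor gene Nr3c1 was lower in members than in the remaining nuclei of both libraries, at 115 and 138 CPM against 586 and 632 CPM.

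The younger members were too few for a comparison with age and are set side by side only. The 7 nuclei at 1 month held 25803 UMIs, from 858 to 12782 each, with 7 to 50 UMIs of the rule genes. They had 95 UMIs of Cyp11a1, 25 of Hsd3b1, 23 of Cyp21a1, 22 of Star and 19 of Cyp11b1. Outside the rule they had 233 UMIs of Pde10a, 96 of Scarb1, 87 of Abcb1b and 10 of Nr5a1. Taken as 3 counts, the limit for a gene at 0 is 116 CPM in these nuclei. This is above the 12.2 CPM of Cyp11b2 and the 40.6 CPM of Hsd3b6 at 6 months at room temperature. It is below the 403 CPM of Kcnk9, 296 CPM of Agtr1b, 188 CPM of Lef1 and 147 CPM of Wnt4 in that library. The zona glomerulosa genes Agtr1b, Cyp11b2, Hsd3b6, Kcnk9, Wnt4 and Lef1 had 0 UMIs, and Vsnl1 had 1. Others of that list were seen, Kcnk3 with 30 UMIs in all 7 nuclei, Agtr1a with 6, Dab2 with 3 and Shh with 1, and the list summed to 1589 CPM against 591 CPM in the remaining nuclei. The deepest nucleus, with 12782 UMIs and 8.16% mitochondrial UMIs, also held 30 UMIs of the adipocyte factor Pparg and 118 of the 233 of Pde10a. The single nucleus at 2 months had 994 UMIs, of which 11 were of the rule genes.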

How the data were processed

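UMI counts per gene and barcode were deposited by the authors for each of 12 libraries. Cell Ranger 7.0.0 and the mm10 build are named in the submitters' processing notes. The gene annotation, the counting of introns and the barcode calling are not given in the sources used here. Barcodes were kept where 300 or more genes were seen and mitochondrial UMIs were 10% or less. The members and gene lists were chosen with earlier results of these data known. UMIs of members were summed per library and scaled to CPM. Log2 ratios have 1 CPM added and need at least 20 UMIs over both sets, and 10 CPM was added for ranking. Named were the rule genes, the 4 most abundant genes of each list, zone, medulla and Leydig genes with a UMI, the 20 leading genes and the 10 largest differences each way. Some genes of the lists, among them Hmgcs1 and Pde8b, were named outside these rules. The narrower cold comparison, its 15 genes each way and the zone split were chosen after the data were seen. Since each group has 1 library, no test was run. Doublets were kept, and as an alternative the highest scores of scrublet (scanpy 1.11.5) were left out at 0.8% per 1000 barcodes; its own threshold marked 2.34 to 5.25% of barcodes. Summing and ratios used Python 3.11.15, numpy 2.4.6, scipy 1.17.1 and pandas 2.3.3, and were checked on simulated data. Promoters were aligned with biopython 1.88. Gene positions come from GENCODE on GRCm38. Some genes chosen by these rules are not reported here.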

Additional observations from a re-analysis of the deposited data

Results flagged for a closer look

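In the cold mPRAT library, 17 barcodes above the mitochondrial limit also met the adrenal cortex rule, outside the nuclei compared. They were 17 of 7353 such barcodes, or 0.231% (exact Clopper-Pearson 95% interval 0.135 to 0.370%). Their median was 13329 UMIs, 23.6% mitochondrial UMIs and 23 UMIs of the 5 steroidogenic genes, and 11 of the 17 had 4 or 5 of these genes. The 5 genes summed to 2215 CPM in them and to 8.65 CPM in the other barcodes above the limit. No barcode above the limit met the rule among 432 at 1 month, 1747 at 2 months and 237 at 6 months at room temperature.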

How the results depend on the processing

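With 1 library a group nothing could be left out and no difference has a replicate check. No paired analysis was possible because each group has 1 library and no test was run. The age comparison gave no value, since the younger libraries held fewer than 20 members. The share of adrenal cortex nuclei at 2 months was 0% with at least 1000 genes, with 0 UMIs of other-type genes, and without the highest doublet scores. With at least 1000 genes the 6-month shares were 1.08% at room temperature and 4.44% in the cold, and with 0 UMIs of other-type genes 0.254% and 1.69%. With no mitochondrial limit the cold share was 1.40%. The 5 rule genes summed to 4088.6 CPM at room temperature and 5288.6 CPM in the cold. As a mean over nuclei the sums were 4279.8 and 5549 CPM, and the cold sum was 5884 CPM with 0 UMIs of other-type genes and 5929 CPM without the highest doublet scores. With 10 CPM added, 3 cortical transcription factors were at least 2-fold higher at room temperature, and with no minimum 5 steroid enzymes and partners were in the cold. The count of genes higher in cold members was 296 with 0 UMIs of other-type genes, beside 245 lower, and 420 without the highest doublet scores, beside 300 lower. With 10 CPM added, 437 were higher and 164 lower. With the level of adipocyte-marker nuclei subtracted they were 1583 and 1496, and with no minimum 3263 and 2719. Among genes at least 2 times as high in members as in the remaining nuclei they were 92 and 154, and with genes set by 1 nucleus also left out 84 and 126. Medians in the cold members changed sign for steroid enzymes and partners (-0.53 after subtraction) and for ACTH and cAMP signalling (-0.28 as a mean over nuclei, -0.043 with 0 UMIs of other-type genes, -5.64 after subtraction and -0.0044 without the highest doublet scores). Log2 ratios of cold to room temperature turned positive with 0 UMIs of other-type genes for Dab2 (0.21), Vsnl1 (3.49) and Agtr1b (3.07), and as a mean over nuclei for Vsnl1 (0.27) and Agtr1b (0.086), so no direction is given for them. The cause of these changes was not tested. Of the other values computed again, 485 of single genes or lists moved by less than their interval or 1.5 times and 181 by more, in the same direction.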
